A study of Gallus gallus with 8 samples.

Results

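A set of 10 genes that act inside the cell in Wnt signalling was compared between chick neural tube cells with and without an active BMP reporter: DACT1, DACT2, AXIN1, AXIN2, NKD1, LEF1, TCF7, TCF7L2, TLE4 and GSK3B. They were chosen by name, with earlier results of these data known. Every probe set that carries one of these 10 symbols in the deposited table was used. This gave 24 of the 38439 probe sets tested. Embryos of white Leghorn chickens at Hamburger and Hamilton stages 10 to 11 received 2 plasmids by electroporation into the trunk neural tube, pBRE-tk-EGFP, in which a BMP-responsive element drives green fluorescent protein, and pCAGGS-IRES-H2B-RFP, which marks every electroporated cell red. Neural tubes were taken 24 h later from pools of close to 30 embryos. Flow sorting divided the red cells of a pool into those with green (BRE_active, at least 20000 cells) and those without it (BRE_inactive). Each of the 4 pools gave 1 array of each fraction, so both groups come from the same embryos, which received both plasmids. The groups were parted by green fluorescence, and whether every red cell without green carried the reporter plasmid was not tested. They also differ in cell type markers, as given below. The reporter stands for BMP activity only through this element, and each array averages over a pool of embryos. All values are log2 expression per probe set, and all differences are BRE_active minus BRE_inactive.

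In the canonical Wnt pathway, a ligand at the cell surface acts through Dishevelled to stop a complex built on the Axin scaffold, in which the kinase GSK3 marks beta-catenin for destruction. Beta-catenin then enters the nucleus and joins the TCF/LEF factors (LEF1, TCF7, TCF7L2), which otherwise hold target genes silent together with Groucho/TLE corepressors such as TLE4. AXIN2, NKD1 and LEF1 are themselves induced by the pathway in many tissues and so serve as its readouts, while DACT proteins bind Dishevelled and can dampen the signal. In the dorsal neural tube, Wnt and BMP signals act side by side on the cells that give rise to the neural crest, and the title of the study names DACT1 and DACT2 in the departure of those cells from the tube.

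The arrays were alike in overall level, with medians between 4.24 and 4.32. Of the 9 neural progenitor markers, 8 were called present on all 8 arrays. Neural crest markers (7 genes, 5 called higher) averaged 8.54 to 9.26 on the BRE_active and 6.63 to 7.78 on the BRE_inactive arrays. Progenitor markers (9 genes, 2 called lower) averaged 8.69 to 8.95 against 9.18 to 9.78. Neuron markers (5 genes, 3 called lower) averaged 6.65 to 7.09 against 7.47 to 8.21, and red blood cell markers (7 genes, 6 called lower) 6.43 to 9.56 against 11.1 to 13.0. Notochord markers (5 genes, 0 called, SHH present on no array) averaged 6.17 to 6.31 against 6.03 to 6.20. All these calls are by limma with group as the only term. In limma with the pool as a block, SOX9 (neural crest, adjusted p = 0.00101) and TBXT (notochord, 0.000784) were also called, both higher. So were the progenitor markers SOX1, MSI1 and HES5 (0.0326, 0.0413 and 0.0413), the neuron marker ELAVL4 (0.045) and the red blood cell marker HBA1 (0.011), all lower. The excess of signal at the 3-prime over the 5-prime end, averaged over 3 control genes (actin, EF1A and GAPDH), was 2.39 to 3.24 on BRE_active and 2.18 to 2.84 on BRE_inactive arrays, and this mean was higher in BRE_active in all 4 pools. Actin alone was lower in BRE_active in pools 1 and 4 (-0.24 and -0.09). These measures differ between the groups that are compared throughout, and their part in the differences was not tested. In sorted populations, a gene that fewer cells express and a gene with less RNA per cell cannot be told apart.

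DACT2 was the only one of the 10 genes called at an adjusted p under 0.05 when the groups were compared by limma across all probe sets, and it was higher in cells with an active reporter. Of the 24 probe sets 2 were called, both of DACT2 and both higher, against 1.34% of all probe sets called in either direction and 0.981% called higher. When the fit also held a term for the pool, so that fractions of the same embryos were paired, 6 of the 24 were called, against 5.61% of all probe sets. Of these 5 were higher (DACT2 and AXIN2 with 2 each, LEF1 with 1), against 3.97% of all probe sets, and 1 was lower (TLE4), against 1.64%. The median difference of the 24 was 0.18, beside -0.02 over all probe sets. Of the 24, 15 were positive (62.5%, beside 44.8% of all probe sets) and 9 negative. The paired probe sets of DACT2 and of AXIN2 are not separate evidence, as given below. Over the 12794 probe sets called present on all 4 arrays of a group, the median was 0.06 and 58.2% were positive. Of these 12794, 339 were called higher and 116 lower with group as the only term. With the block 1303 were called higher and 480 lower.

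The number of probe sets that were detected at all sets what can be read from each gene. Of the 24, 11 were called present by the authors on all 4 arrays of at least 1 group: 2 each of DACT2, AXIN2 and GSK3B, and 1 each of AXIN1, LEF1, TCF7, TCF7L2 and TLE4. Another 10 were present on no array, among them the only probe sets of DACT1 and NKD1, and 3 were present on some arrays. A detected probe set had to be bright in at least 1 group, so no count over these 11 is given as support.

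**Figure D1:**
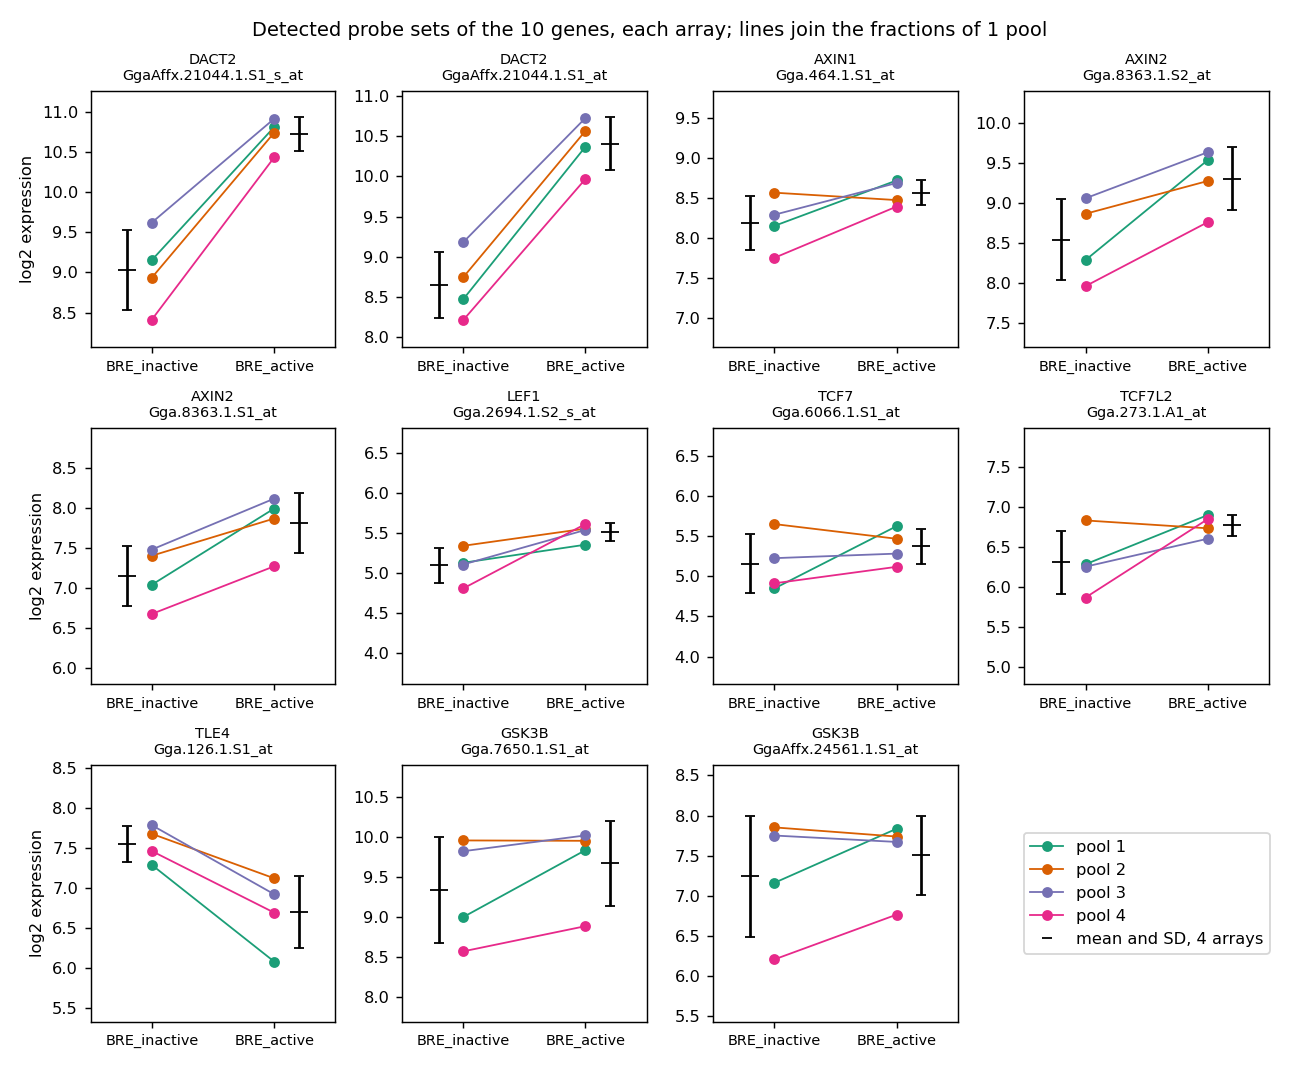
Log2 expression (y axis, every panel of the same height in log2 units) of the 11 probe sets present on all 4 arrays of a group, in BRE_inactive and BRE_active cells. Points are arrays, lines join the fractions of 1 pool, and black bars give the mean and SD of 4 arrays. DACT2 is higher and TLE4 lower in BRE_active cells in all 4 pools, while the points of GSK3B overlap and those of pool 4 are low in both fractions.

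DACT2, a Dishevelled-binding protein of the Dapper family, lies on chromosome 3 per the deposited table. Its brightest probe set (GgaAffx.21044.1.S1_s_at) read 10.81, 10.74, 10.92 and 10.44 in BRE_active pools 1 to 4 and 9.15, 8.94, 9.62 and 8.41 in BRE_inactive pools 1 to 4. The lowest BRE_active array was above the highest BRE_inactive array, so the groups did not overlap. On this probe set the 4 BRE_active arrays were also closer together, with an SD of 0.21 against 0.50 in BRE_inactive cells. The difference was 1.70 ± 0.22 (SE, 4 arrays per group, adjusted p = 0.00707), or 3.24-fold, and within pools 1 to 4 it was 1.66, 1.81, 1.30 and 2.02. With the pool as a block the adjusted p was 0.000326.

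A probe set made to the same DACT2 target (GgaAffx.21044.1.S1_at) read 10.37, 10.57, 10.73 and 9.97 in BRE_active cells and 8.47, 8.74, 9.18 and 8.21 in BRE_inactive cells of pools 1 to 4, again with no overlap. Its SDs lay nearer to each other, at 0.33 in BRE_active and 0.42 in BRE_inactive cells. Its difference was 1.76 ± 0.22 (adjusted p = 0.00563), with 1.90, 1.83, 1.55 and 1.76 in the 4 pools. These probe sets share their target sequence and are not separate evidence. The remaining probe set of DACT2 (Gga.18444.1.S1_at) was called absent on all 8 arrays, with values from 3.71 to 4.22 and a difference of 0.20 ± 0.12 (adjusted p = 0.494). The call of both bright probe sets was lost with group as the only term when pool 1 (adjusted p = 0.0868 and 0.0794) or pool 2 (0.0967 and 0.0758) was left out. The differences then stayed between 1.66 and 1.74, and with the pool as a block the calls returned in both cases (adjusted p from 0.000241 to 0.00445).

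DACT1, the other Dapper gene of the study's title, had a single probe set (GgaAffx.23741.1.S1_at, chromosome 5), and it was called absent on all 8 arrays. It read 4.14, 4.13, 4.43 and 4.49 in BRE_active cells and 4.82, 4.56, 4.44 and 4.46 in BRE_inactive cells of pools 1 to 4. The groups overlapped, and the readings sat close to the array medians of 4.24 to 4.32. The difference was -0.27 ± 0.12 (adjusted p = 0.354). For this and every other probe set present on no array, a difference is printed as a reading only, and it says nothing on whether the gene is transcribed.

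**Figure D2:**
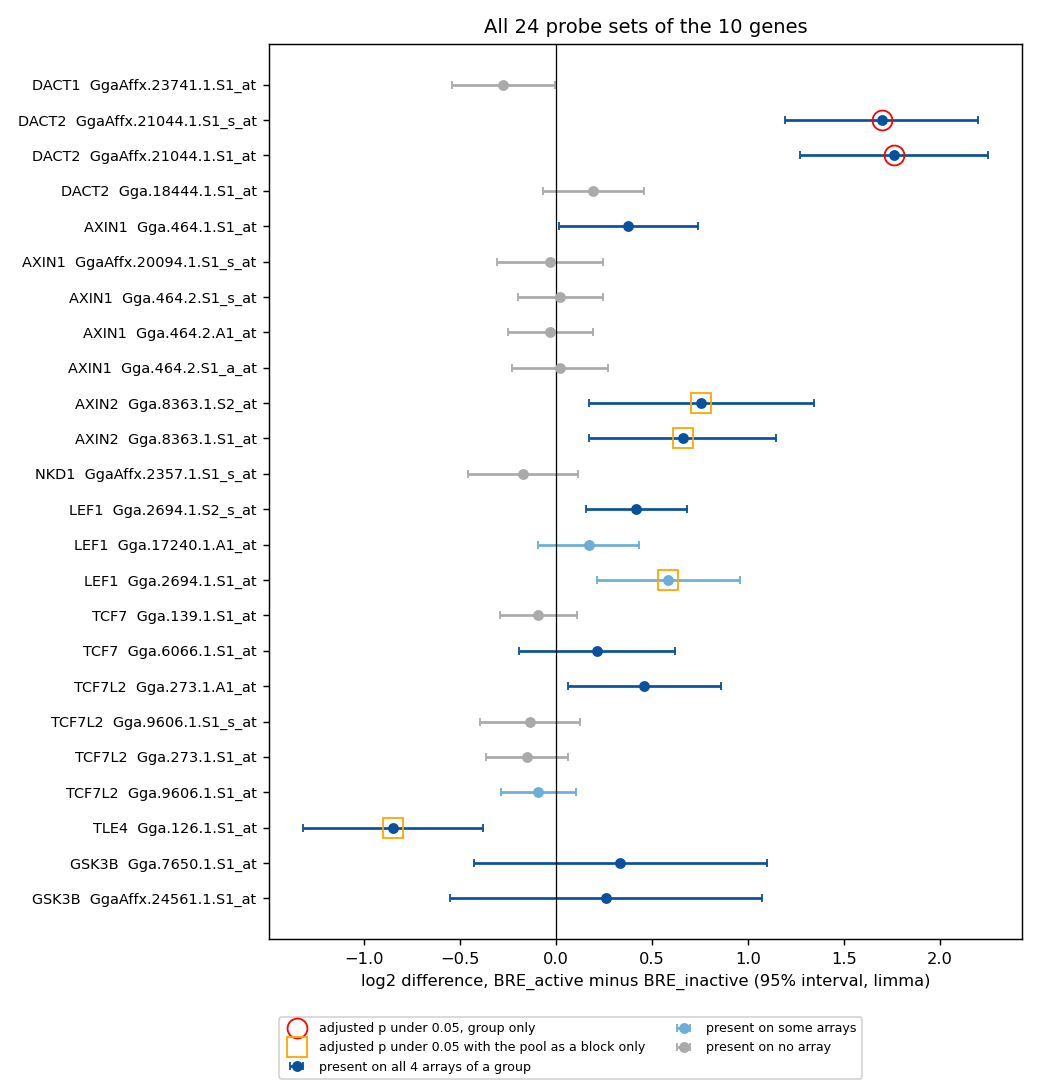
Log2 difference, BRE_active minus BRE_inactive, of all 24 probe sets with 95% intervals from limma (x axis). The intervals are of the fit with group as the only term and do not pair the fractions of a pool. Colour gives detection, red circles mark adjusted p under 0.05 with group as the only term, and orange squares mark those past it only with the pool as a block. DACT2 stands at 1.70 and 1.76, TLE4 at -0.85, and the probe sets present on no array lie between -0.27 and 0.20.

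Of the scaffolds of the destruction complex, AXIN2 read higher in BRE_active cells in all 4 pools and AXIN1 in 3 of 4, and neither passed the threshold with group as the only term. AXIN2, a negative feedback gene on chromosome 18, read 9.53, 9.27, 9.63 and 8.76 in BRE_active and 8.28, 8.86, 9.06 and 7.96 in BRE_inactive pools 1 to 4 on its brighter probe set (Gga.8363.1.S2_at). The groups overlapped, because the BRE_active value of pool 4 was below the BRE_inactive values of pools 2 and 3. The difference was 0.76 ± 0.26 (95% interval 0.17 to 1.34, adjusted p = 0.245), and it passed with the pool as a block (0.76 ± 0.14, adjusted p = 0.0167).

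The other AXIN2 probe set (Gga.8363.1.S1_at) gave 7.99, 7.87, 8.12 and 7.27 in BRE_active and 7.04, 7.40, 7.48 and 6.68 in BRE_inactive cells. Its pools stood in the same order as those of the brighter probe set within each fraction. Both IDs carry the number 8363.1, so these 2 probe sets are not taken as separate evidence. Its difference was 0.66 ± 0.22 (adjusted p = 0.222, or 0.00867 with the block). Within pools 1 to 4 the differences were 1.25, 0.41, 0.58 and 0.80 on the brighter and 0.95, 0.46, 0.64 and 0.59 on the other probe set. On both probe sets the difference was thus largest in pool 1 and smallest in pool 2. Without pool 3 neither kept its call with the block (adjusted p = 0.0687 and 0.0595), and without pool 4 the brighter one lost it (0.0561). Without the array BRE_active 4, the dimmer probe set was called with group as the only term (0.84, adjusted p = 0.0416).

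AXIN1, the constitutive scaffold on chromosome 14, was detected by 1 of its 5 probe sets (Gga.464.1.S1_at). It read 8.72, 8.47, 8.68 and 8.39 in BRE_active and 8.15, 8.56, 8.29 and 7.75 in BRE_inactive pools 1 to 4. The groups overlapped, and pool 2 had the opposite sign (-0.09, against 0.57, 0.40 and 0.64 in the others). The difference was 0.38 ± 0.16 (95% interval 0.02 to 0.74, adjusted p = 0.339, or 0.137 with the block). Without BRE_inactive 4 it was 0.23 (adjusted p = 0.588), and with the block and without pool 2 it was called (0.53, adjusted p = 0.0473). The other 4 probe sets were absent on all arrays, with differences from -0.03 to 0.02.

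GSK3B encodes the kinase of the destruction complex. The RefSeq gene table of assembly GRCg7b lists the gene ID of its probe sets as GSK3A, and the name of the deposited table is kept here. Its brighter probe set (Gga.7650.1.S1_at, chromosome 1) read 9.83, 9.95, 10.02 and 8.88 in BRE_active cells and 8.997, 9.95, 9.82 and 8.57 in BRE_inactive cells of pools 1 to 4. The groups overlapped widely, and pool 4 was lowest in both fractions. With group as the only term the difference was 0.34 ± 0.34 (95% interval -0.43 to 1.10, adjusted p = 0.703). That interval holds positive changes of more than 2-fold, but it does not pair the fractions of a pool. With the pool as a block the difference was 0.34 ± 0.13 (adjusted p = 0.204). The other probe set (GgaAffx.24561.1.S1_at) gave 0.26 ± 0.36 (adjusted p = 0.789), with 2 pools positive and 2 negative.

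Pool 4 was lowest in both fractions for 7 of the 11 detected probe sets (DACT2, AXIN2 and GSK3B with 2 each and AXIN1), beside 25.8% of the 12794 probe sets of the whole array detected in the same way. Over all 24 probe sets it was lowest for 9 (37.5%), beside 12.0% of all probe sets. The 7 include pairs from the same gene, so these counts are not given as support. The mean 3-prime minus 5-prime signal of the 3 control genes was also lowest in pool 4 in both fractions (2.39 and 2.18). Whether these are related was not tested.

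Of the 3 TCF/LEF factors, LEF1 read higher in BRE_active cells in all 4 pools on 2 of its 3 probe sets, and no factor was called with group as the only term. LEF1, on chromosome 4, is a factor that mostly activates targets with beta-catenin. Its brightest probe set (Gga.2694.1.S2_s_at) read 5.36, 5.56, 5.54 and 5.61 in BRE_active and 5.13, 5.34, 5.11 and 4.81 in BRE_inactive pools 1 to 4. The groups did not overlap, but their nearest arrays read 5.36 and 5.34, and the probe set was called present on 4 BRE_active and 2 BRE_inactive arrays. The difference was 0.42 ± 0.12 (adjusted p = 0.158, or 0.0776 with the block).

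A dimmer LEF1 probe set (Gga.2694.1.S1_at), present on 2 BRE_active and 1 BRE_inactive arrays, read 4.02, 3.91, 3.77 and 3.47 against 3.31, 3.24, 3.49 and 2.78. Its ID shares the number 2694.1 with the brightest probe set, so it is not taken as separate evidence. Its difference of 0.59 ± 0.17 missed the threshold (adjusted p = 0.162) and passed with the block (0.0140). That blocked call was lost without pool 2 (0.0656) or pool 4 (0.0529), and with group as the only term a call was made without BRE_active 4 (0.0482) or pool 4 (0.0328). The signal is dim, below the array medians on all 8 arrays. The remaining LEF1 probe set (Gga.17240.1.A1_at) differed by 0.17 ± 0.12 (adjusted p = 0.551), with pool 3 of the opposite sign.

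TCF7, on chromosome 13, was detected by Gga.6066.1.S1_at, which read 5.63, 5.47, 5.28 and 5.12 in BRE_active and 4.85, 5.65, 5.23 and 4.91 in BRE_inactive cells. The groups overlapped, and the difference was 0.21 ± 0.18 (95% interval -0.19 to 0.62, adjusted p = 0.639). Its other probe set was absent on all 8 arrays. TCF7L2, on chromosome 6, was detected on all arrays by 1 of 4 probe sets (Gga.273.1.A1_at), with 6.90, 6.73, 6.60 and 6.85 in BRE_active and 6.28, 6.83, 6.25 and 5.87 in BRE_inactive pools 1 to 4. Pool 2 alone had a negative difference, -0.10, and the difference was 0.46 ± 0.18 (95% interval 0.06 to 0.86, adjusted p = 0.294, or 0.143 with the block). Of the remaining 3 TCF7L2 probe sets, 2 were present on no array and 1 on 2 BRE_inactive arrays, with differences from -0.15 to -0.09.

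TLE4, the Groucho-family corepressor on chromosome Z, was the only detected gene of the 10 whose difference was negative. Its probe set (Gga.126.1.S1_at) read 6.08, 7.12, 6.92 and 6.69 in BRE_active cells and 7.29, 7.68, 7.79 and 7.46 in BRE_inactive cells of pools 1 to 4, all called present. The highest BRE_active array was below the lowest BRE_inactive array. The difference was -0.85 ± 0.21 (95% interval -1.31 to -0.38, adjusted p = 0.102), which missed the threshold with group as the only term. With the pool as a block it passed (-0.85 ± 0.11, adjusted p = 0.0048), as it did with the pool as a random effect (0.0318) and with the block and any 1 pool left out (0.00602 to 0.0439).

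The BRE_active array of pool 1 was lowest for TLE4, and the difference within that pool was -1.21 against -0.56, -0.86 and -0.77 in pools 2 to 4. The same array had the lowest mean of the surface ectoderm markers (6.27, the other BRE_active arrays 6.72 to 7.22) and of the somite and mesenchyme markers (5.54, the others 7.14 to 7.29). Among the BRE_active arrays it was also lowest for red blood cell markers (6.43, the others 7.29 to 9.56). It was highest there for neural crest (9.26) and neural progenitor markers (8.95). Over all arrays the surface ectoderm markers averaged 6.27 to 7.22 in BRE_active and 6.74 to 7.45 in BRE_inactive cells (0 of 6 measured genes called by limma). The somite and mesenchyme markers averaged 5.54 to 7.29 and 5.95 to 6.50 (0 of 7 called). Without that array the TLE4 difference was -0.64 ± 0.15 (adjusted p = 0.137). The part of these cell types in the TLE4 values was not tested. Of the 24 probe sets, 4 had groups without overlap, against 7.13% of all probe sets. Of the 12794 probe sets present on all 4 arrays of a group, 1411 had groups without overlap. Among the 24 probe sets of the 10 genes the direction was as follows. BRE_active lay above in 3 (DACT2 with 2 and LEF1), against 3.74% of all, and below in 1 (TLE4), against 3.39%.

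NKD1, a Dishevelled-binding inhibitor induced by Wnt signals in many tissues (chromosome 11), was not detected. Its single probe set (GgaAffx.2357.1.S1_s_at) was absent on all arrays, with 3.25 to 3.43 in BRE_active and 3.28 to 3.88 in BRE_inactive cells (difference -0.17 ± 0.13, adjusted p = 0.591).

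The genes around these 10 in the pathway were taken from 4 lists, each gene by its probe set with the highest mean. The lists were drawn up with earlier results of these data known, so no count over them is given as support. Among other intracellular parts of the canonical pathway, 23 of 38 listed genes were measured apart from the 10. The listed GSK3A was left out, because its gene ID is that of the GSK3B probe sets above. Limma called 0 of the 23, both with group as the only term (2.21% of all 13249 genes were called) and with the block (7.46%). An unadjusted p under 0.05 was reached by 3 of the 23 (13.0%), beside 17.0% of all genes. Present on all 4 arrays of a group were 17 of the 23, against 6798 of all 13249 genes. The median difference was 0.11, beside -0.02 over all genes and 0.06 over all probe sets detected in that way. The 4 with the smallest p were CXXC5 (0.27 ± 0.09, adjusted p = 0.238), RNF146, a ubiquitin ligase that acts on Axin (0.22 ± 0.08, 0.274), AMER2 (-0.26 ± 0.10, 0.31, present on no array) and the casein kinase CSNK1E (0.44 ± 0.20, 0.366). Beta-catenin itself (CTNNB1), named after its value was seen, differed by 0.12 ± 0.09 (adjusted p = 0.624), from 12.64 in BRE_inactive to 12.75 in BRE_active cells.

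Nuclear partners of beta-catenin and TCF/LEF likewise gave 0 calls by limma among 23 measured of 29 listed genes, and 0 with the block. An unadjusted p under 0.05 was reached by 2 (8.70%), beside 17.0% of all genes. The median difference was -0.05. TLE1, a paralogue of TLE4, differed in the other direction from it, by 0.60 ± 0.20 (adjusted p = 0.231, or 0.0524 with the block). The corepressor CTBP1 differed by -0.25 ± 0.10 (adjusted p = 0.304), TBL1XR1 by 0.54 ± 0.28 (0.431) and the helicase RUVBL1 by -0.22 ± 0.12 (0.45).

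**Figure D3:**
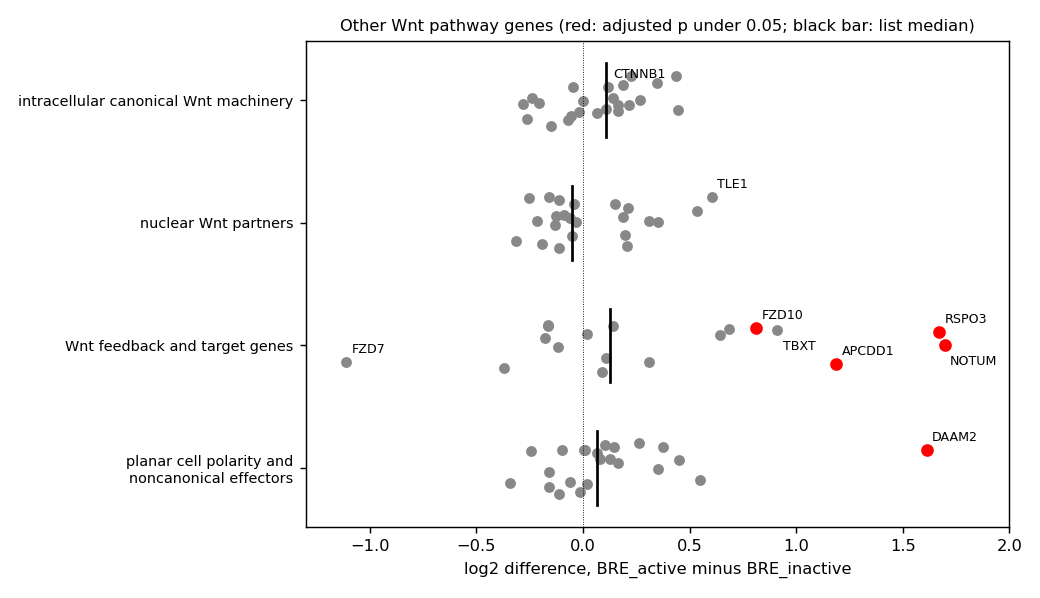
Log2 difference, BRE_active minus BRE_inactive (x axis), of the genes of 4 Wnt lists (y axis), 1 point per gene, with points spread vertically for sight. Red points have an adjusted p under 0.05 and black bars are list medians. The called genes are RSPO3, NOTUM, APCDD1, FZD10 and DAAM2, and 0 genes of the upper lists (machinery and nuclear partners) are called.

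Of 22 listed feedback and target genes of the pathway, 18 were measured. Limma called 4 of these higher (1.55% of all genes were called higher) and none lower (0.657%). The pool term brought this to 6 higher (4.91% of all genes) and 1 lower (2.55%). The 4 were NOTUM, a secreted enzyme that inactivates Wnt ligands (1.70 ± 0.22, adjusted p = 0.00647), RSPO3, a Wnt enhancer (1.67 ± 0.22, 0.00674), APCDD1, a membrane inhibitor (1.19 ± 0.18, 0.0133), and the receptor FZD10 (0.81 ± 0.15, 0.0307). The list median was 0.13, beside -0.02 over all genes, with 12 differences positive and 6 negative. An unadjusted limma p under 0.05 was reached by 8 of the 18 (44.4%), beside 17.0% of all genes. Of the 18, 15 were present on all 4 arrays of a group. Over all probe sets detected in that way, the median was 0.06 and 24.4% reached an unadjusted limma p under 0.05. As the list was drawn up with earlier results known, these counts are not support. APCDD1 and FZD10 were each present on 4 BRE_active and 2 BRE_inactive arrays, and RSPO3 and APCDD1 each had a further probe set near 0 (-0.05 and 0.08).

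MYC (0.64 ± 0.13, adjusted p = 0.0536), TBXT (0.91 ± 0.25, 0.142) and the receptor FZD7 (-1.11 ± 0.32, 0.17) missed the threshold and passed with the block (0.0246, 0.000784 and 0.00477). The other FZD7 probe sets differed by -0.60 and -0.29 and were not called with group as the only term. The blocked call of MYC was lost without pool 2, 3 or 4 (0.0948, 0.107 and 0.0638), and those of TBXT and FZD7 were kept without any 1 pool. TBXT is also among the notochord markers above. NOTUM, RSPO3 and APCDD1 also kept their blocked calls without any 1 pool, while FZD10 did not keep its call in every such fit. WIF1, a secreted inhibitor, differed by 0.69 ± 0.27 (adjusted p = 0.305). TNFRSF19, named after its values were seen, was not called on its brightest probe set (0.14 ± 0.09, adjusted p = 0.55), though 2 dimmer ones were called, with 0.52 and 0.68. With group as the only term, the calls depended on single pools. Limma then called 0 of the list without pool 1, 1 without pool 2 (FZD7, lower, adjusted p = 0.0334), 2 without pool 3 and 4 without pool 4. Calls over all probe sets moved in these fits too, from 517 to 104, 112, 77 and 1269 without pools 1 to 4. FZD10 and APCDD1 both lost their calls without BRE_active 2 (adjusted p = 0.113 and 0.0589) and without BRE_active 3 (0.071 and 0.0541). NOTUM and RSPO3 kept theirs without any single array. MYC was called without BRE_inactive 1 (0.0373) and TBXT without BRE_active 4 (0.0469). FZD10 also lost its call without BRE_active 1 (0.0871), BRE_inactive 1 (0.0543) or BRE_inactive 2 (0.0733).

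Among planar cell polarity and other noncanonical effectors, to which Dishevelled also leads, 1 of 23 measured of 27 listed genes was called higher. The other 22 were not called, and 1.55% of all genes were called higher. The called gene was DAAM2, a formin that binds Dishevelled, with 1.61 ± 0.26 (adjusted p = 0.017) on 1 of 3 probe sets, the others giving -0.20 and 0.64. With group as the only term, that call was lost without any of BRE_active 1, 2 and 3 (adjusted p = 0.0636, 0.0705 and 0.0713). It was also lost without pool 1, 2 or 3 (0.15, 0.159 and 0.0787). With the pool as a block DAAM2 was called (adjusted p = 0.000289), and it kept that call without any 1 pool. With the block DAAM2 was joined by MAPK9 (0.55 ± 0.17, adjusted p = 0.203, or 0.0206 with the block) and the p120 catenin gene CTNND1 (0.45 ± 0.17, 0.275, or 0.0412 with the block). The block thus called 3 of the 23 higher, against 4.91% of all genes. The other 3 CTNND1 probe sets differed by -0.15 to -0.01, and the blocked call of CTNND1 was lost without any 1 of the 4 pools (adjusted p from 0.0686 to 0.15). The blocked call of MAPK9 was lost without pool 2, 3 or 4 (0.081, 0.0532 and 0.0533). MAPK9 was also called without the block when BRE_active 4 (0.0432) or pool 4 (0.0493) was left out. The probe sets of MAPK10 (-0.34 ± 0.12, adjusted p = 0.268) and VANGL2 (-0.24 ± 0.09, 0.276) were present on no array. In this list an unadjusted limma p under 0.05 was reached by 5 of the 23 (21.7%), beside 17.0% of all genes.

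The likeness of other genes to DACT2, AXIN2 and TLE4 was measured as the root mean square difference of the 8 array values, each taken from the probe set's own mean, over 9137 named and detected probe sets. DAAM2 came closest to DACT2, at 0.145 log2 units, closer than the other DACT2 probe set (0.176). NOTUM (0.201), CALD1, an actin-binding protein (0.207), APOH (0.207) and the homeobox gene DLX5 (0.209) followed. All 5 were higher in BRE_active cells, by 1.48 to 1.81, and in all 5, as in DACT2, the lowest BRE_inactive array was that of pool 4. The 5 genes were picked by likeness, so these shared traits follow from the choice. With group as the only term, DLX5 kept its call without any 1 array or pool, while CALD1 (adjusted p up to 0.149) and APOH (up to 0.213) did not. With the pool as a block, CALD1 and APOH kept their calls without any 1 pool.

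**Figure D4:**
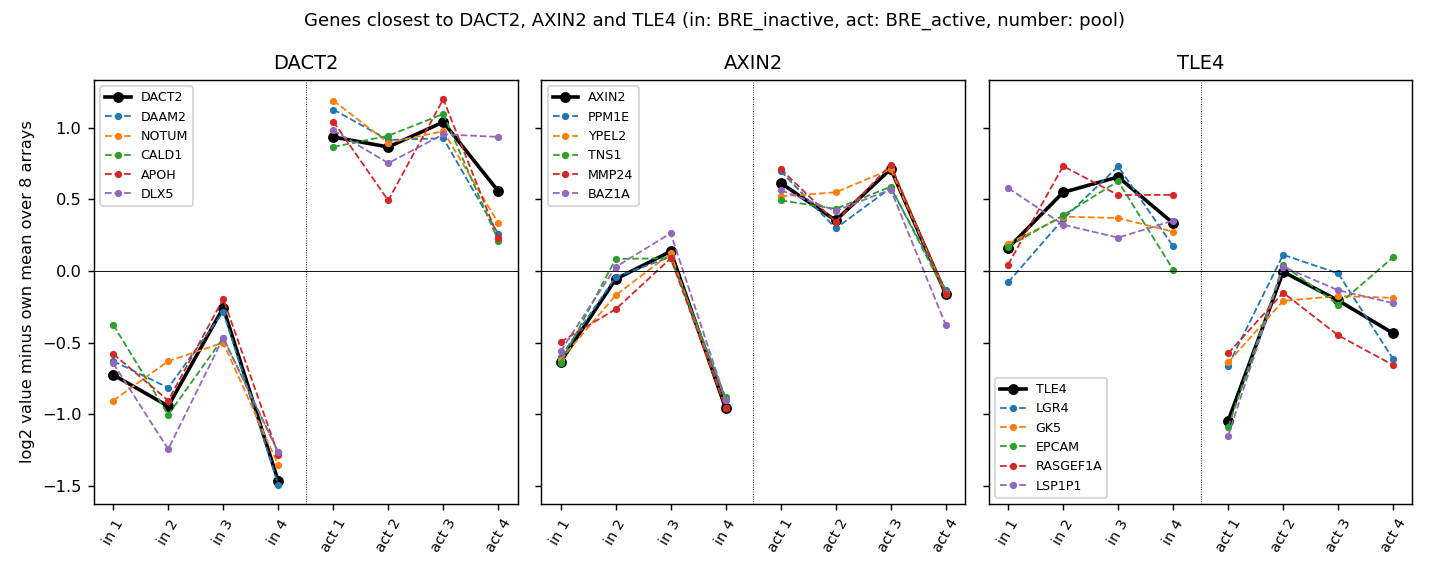
Log2 values minus each probe set's own mean over the 8 arrays (y axis) for DACT2, AXIN2 and TLE4 (black) and the 5 genes closest to each (coloured), with arrays on the x axis (in, BRE_inactive; act, BRE_active; number, pool). The AXIN2 panel shows low values of pool 4 in both fractions, and the TLE4 panel shows its lowest value in BRE_active 1.

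For AXIN2 the 5 closest were PPM1E (0.066), YPEL2 (0.0869), TNS1 (0.0898), MMP24 (0.0977) and BAZ1A (0.115), with the other AXIN2 probe set at 0.113. None of them was called with group as the only term (differences from 0.59 to 0.81, adjusted p from 0.191 to 0.398). With the pool as a block all 5 were called, as AXIN2 was (adjusted p from 0.00434 for YPEL2 to 0.0459 for BAZ1A). Only YPEL2 and MMP24 of the 5 kept that call without any 1 pool. For TLE4 they were LGR4, a receptor for R-spondins (0.21), GK5 (0.219), the epithelial adhesion gene EPCAM (0.229), RASGEF1A (0.238) and LSP1P1 (0.242). Of these GK5 and RASGEF1A were called lower, with -0.61 ± 0.12 (adjusted p = 0.0376) and -0.92 ± 0.16 (0.025), and the other 3 differed by -0.74 to -0.59 without a call. With the block LGR4 was called too (adjusted p = 0.0186), a call lost without pool 3 (0.119) or pool 4 (0.065), while EPCAM (0.126) and LSP1P1 (0.0944) were not. With group as the only term, neither GK5 nor RASGEF1A kept its call in every fit that left out an array or pool (adjusted p up to 0.208 and 0.204). With the block RASGEF1A kept its call without any 1 pool, and GK5 did not. EPCAM is also 1 of the 6 surface ectoderm markers above, and it too was lowest in BRE_active 1. These are likenesses over 8 arrays that share the group difference and the pools, and no test was made of them. Because the genes were picked for likeness, differences, pool patterns and calls shared with DACT2, AXIN2 or TLE4 follow from the choice. They are not further evidence.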

How the data were processed

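RNA of 2 sorted fractions from each of 4 embryo pools was measured on Affymetrix arrays, 8 in all. The authors deposited log2 values per probe set, adjusted p-values and present, marginal or absent calls, per the file headers. The sources used here do not give the background correction, normalization, probe summary or caller. The deposited adjusted p-values were matched within 6.41e-13 by limma with group as the only term, run on the 38535 probe sets of the whole table.

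Without the 96 controls of the manufacturer, 38439 probe sets entered a linear model on the log2 values (limma 3.58.1, lmFit and eBayes, R 4.3.3), with Benjamini-Hochberg adjustment over all of them and a threshold of 0.05. The fit with group as the only term was tested on simulated data with independent noise and no pool effect. The fit with the block was not simulated. List symbols were updated through gene IDs (22915 of 26132 matched in the GRCg7b RefSeq table). Named genes are all probe sets of the 10 genes, called list genes, up to 4 more per list by p, and the 5 genes closest to DACT2, AXIN2 and TLE4. Members and lists were chosen with earlier results of these data known. Per the labels' titles, same-numbered arrays are fractions of the same embryos, so the pool pairs them. Deviations of same-numbered arrays correlated at -0.14, 0.20, 0.50 and 0.58. Precision is limited by 4 arrays per group. Alternatives were the pool as a block or random effect, quantile normalization, filters on dim probe sets, a trended robust prior, the series matrix values and leaving out each array or pool.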

Additional observations from a re-analysis of the deposited data

Results flagged for a closer look

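In 4 of 48 groups of 4 arrays, 1 array lay far from the other 3 by Dixon's gap ratio, where chance flags about 1 in 20 groups. GSK3B was low in BRE_active 4 on both probe sets, at 8.88 (the others 9.83 to 10.02) and 6.76 (the others 7.67 to 7.84). Of probe sets absent on all arrays, TCF7 (Gga.139.1.S1_at) was low in BRE_active 3, at 5.88 (the others 6.17 to 6.20), and TCF7L2 (Gga.273.1.S1_at) was high in BRE_inactive 4, at 4.33 (the others 3.99 to 4.01).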

How the results depend on the processing

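With the pool as a replicate block, which pairs the arrays, 2156 probe sets were called in place of 517, 6 in place of 2 of the 24 probe sets of the 10 genes, 7 in place of 4 target genes and 3 in place of 1 noncanonical gene. With a random block 1068 probe sets and 3 of the 24 were called. The block without pools 1 to 4, added after seeing the data, called 6, 6, 4 and 4 of the 24. The share called over all probe sets was not counted in those fits, so these counts have no background beside them. With group as the only term, leaving out 1 array or pool gave 77 (without pool 3) to 1419 (without BRE_active 4) probe sets, 0 (without pool 1 or 2) to 4 (without pool 4 or BRE_active 4) of the 24, 0 to 5 target genes and 0 to 2 noncanonical genes. Fewer arrays enter these fits. Among the named genes, signs turned only in fits that left out an array or pool, with or without the block, and only in 5 uncalled probe sets. They were 4 undetected ones of AXIN1 (-0.12 to 0.062, -0.081 to 0.092, -0.13 to 0.022 with 0.0043 between them, and -0.076 to 0.12 with -0.047 between them) and 1 of GSK3B (-0.086 to 0.51). Quantile normalization, both filters on dim probe sets, an intensity trend with a robust prior and the series matrix values each left 2 of the 24 called. Dim probe sets left out by a filter have no value under it.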
